A study of Mus musculus with 4 samples.

Results

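Kidney transcripts of 9 complement genes were compared between wild-type (WT) mice and mice lacking Zbp1 (Zbp1-KO), all with pristane-induced lupus-like disease. The genes were listed by name for their role in complement and were found by symbol through their Ensembl identifiers, so that 9 of 54532 genes in the count files were described. They comprised C1qa, C1qb and C1qc, which encode the chains of the recognition molecule C1q, then C3, C4b and Cfb, which carry the cascade forward, and Cfi, Serping1 and Cd55, which restrain it. Of these, 8 had enough reads to be tested and Cfi did not. Each genotype was represented by 2 kidney libraries, 4 in all. Every animal had received 500 µL of pristane, a hydrocarbon oil, by intraperitoneal injection when 8 weeks old, and the kidneys were collected after a further 8 months. The knockout was a germline CRISPR-Cas9 deletion of Zbp1 exons 2 to 8, present in all cells, on a C57BL/6J background. The study describes female animals for this model, and its WT mice were purchased, whereas the knockout line was made by a company. Libraries of mice without pristane were not analysed here, so that the values describe a difference between genotypes within the disease model.

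Complement is a cascade of plasma and tissue proteins that marks targets for removal. C1q binds immune complexes and dying cells and starts the classical pathway, in which C4b and then C3 are deposited on the target. Factor B, the product of Cfb, joins C3b to form the convertase that amplifies the response through the alternative pathway. Cells limit the process through C1 inhibitor (Serping1), factor I (Cfi), which cleaves C3b and C4b, and decay-accelerating factor (Cd55), which dissociates the convertases. In kidney, C1q is made mainly by macrophages and related myeloid cells, and C3 and factor B can be made locally by tubular and stromal cells. Deposits of C1q, C4 and C3 in glomeruli are a hallmark of lupus nephritis.

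Total counts ranged from 9878776 to 12921925 per library, and 49.5% to 61.5% of them fell on mitochondrially encoded genes. The targeted gene, Zbp1, had 94 and 125 counts in WT and 18 and 0 counts in Zbp1-KO. It was lower in both Zbp1-KO libraries, but was not called in the edgeR quasi-likelihood test (adjusted p = 0.999). The call depended on the test and filter. Zbp1 was called by the edgeR exact test (adjusted p = 0.011) and likelihood ratio test (adjusted p = 0.00749). The quasi-likelihood test called it when all genes of at least 1 count were kept (adjusted p = 2.86e-05). DESeq2, which was run on all genes of at least 1 count, and limma-voom did not call it. The annotation holds 8 exon blocks of Zbp1, and the study describes a deletion of exons 2 to 8. Gene counts do not show whether the 18 counts lie outside the deletion. All 8 nephron markers examined were detected, with a summed level of 3560 and 3960 CPM in WT, against 3420 and 3350 in Zbp1-KO. CPM denotes counts divided by the TMM-scaled library size, in the usual per-library unit of 1000000 counts. Nothing in the labels says how animals and libraries correspond beyond the separate samples, so that p-values measure the spread between these samples. The smallest two-sided p that exact permutation of 2 against 2 libraries allows is 0.333, and the p-values given come from the edgeR quasi-likelihood test across all 14908 tested genes.

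The recognition genes lie side by side on the minus strand of chromosome 4 in GENCODE M21 (GRCm38, the assembly also called mm10). C1qb (ENSMUSG00000036905) spans 136880129 to 136886187, C1qc (ENSMUSG00000036896) 136889804 to 136893065 and C1qa (ENSMUSG00000036887) 136895917 to 136898803. C4b (ENSMUSG00000073418, 34728380 to 34743882), Cfb (ENSMUSG00000090231, 34856374 to 34862518) and C3 (ENSMUSG00000024164, 57203970 to 57228136) are on the minus strand of chromosome 17, the first pair of them within the major histocompatibility complex. Cfi (ENSMUSG00000058952) is on the plus strand of chromosome 3, 129835884 to 129875332. Serping1 (ENSMUSG00000023224) is on chromosome 2, 84765387 to 84775444, and Cd55 (ENSMUSG00000026399) on chromosome 1, 130439027 to 130462744, both on the minus strand.

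The sequence of some members bears on how their reads could be counted, since only uniquely mapped pairs were used. C4b has a close copy, C4a, on the same strand of chromosome 17 (34809092 to 34823464). Their main transcripts were 96.1% identical over 5367 aligned bases, with a longest identical run of 433 bases, and 16.5% of all 100-base windows of the C4b transcript were found unchanged in C4a. The copies can still be told apart where they differ. The 60-base coding stretch with the most differences, bases 2705 to 2764 of the C4b coding sequence, is shown for both transcripts of GENCODE M21, with the 13 differing bases in capitals.
C4b: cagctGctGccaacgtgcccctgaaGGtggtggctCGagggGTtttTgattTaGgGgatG
C4a: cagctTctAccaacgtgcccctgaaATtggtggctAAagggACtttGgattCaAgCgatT
C4b carried nearly all reads of the pair, with 94.2% to 99.3% of their summed counts in each library. For Cd55, 6.86% of 100-base windows were shared with its neighbour Cd55b, which had 0 counts in every library. C1qa, C1qb, C1qc, C3, Cfi and Serping1 shared no such window with a transcript of another gene.

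Cfb is the member whose counts are most exposed to its annotation. The read-through gene Gm20547, which runs along the same strand, covers 79.5% of the exon bases of Cfb, and leaves 579 of 2825 bases to Cfb alone. Most of these, 467 bases, form the most upstream exon. Gm20547 itself had 0 counts in every library. How the counting treated pairs that lie in both genes is not given in the sources used here, so that Cfb counts may hold only part of its reads in every library. The map of Cfb exons shows which of the 17 exon blocks are free of the overlap.

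**Figure D1:**
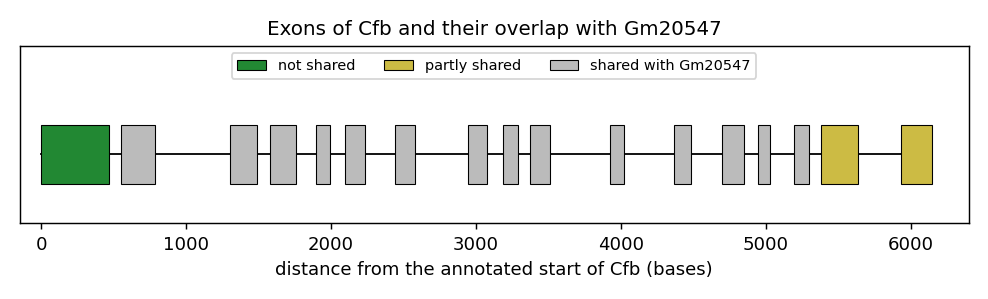
Exon blocks of Cfb drawn to scale by distance from its annotated start (horizontal axis, bases), coloured by whether they are shared with the read-through gene Gm20547. The first block of 467 bases is not shared, the last blocks are shared in part, and the blocks between them are shared in full.

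RefSeq stretches of 250 bases before the start (GRCm38.p6, all on the minus strand) matched 4 of the 9 members, C1qb, C1qc, C3 and Cd55. They are shown for C1qb, C3 and Cd55, which stand for a recognition gene, the central component and a membrane regulator. The stretch of C1qc overlaps an annotated exon by 151 bases and is not shown. Capitals mark matches on either strand to any of 6 motifs, namely a pair of GAAA separated by any 2 bases (the interferon-stimulated response element core), TTCNNNGAA (gamma-activated site), TTGCNNAA (C/EBP), GAGGAAG (PU.1), TGANTCA (AP-1) and GGG and TTCC separated by any 3 bases (NF-kB).
C1qb, chr4:136886201-136886450: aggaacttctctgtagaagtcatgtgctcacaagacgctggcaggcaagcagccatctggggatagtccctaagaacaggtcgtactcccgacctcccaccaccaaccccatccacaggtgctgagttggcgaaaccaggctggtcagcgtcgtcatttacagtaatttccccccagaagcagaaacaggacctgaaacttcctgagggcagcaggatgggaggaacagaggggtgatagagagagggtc
C3, chr17:57228137-57228386: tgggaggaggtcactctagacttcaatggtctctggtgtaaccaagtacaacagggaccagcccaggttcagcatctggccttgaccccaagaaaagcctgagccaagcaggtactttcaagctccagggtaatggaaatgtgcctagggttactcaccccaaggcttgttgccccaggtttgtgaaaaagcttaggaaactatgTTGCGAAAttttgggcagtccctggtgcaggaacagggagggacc
Cd55, chr1:130462745-130462994: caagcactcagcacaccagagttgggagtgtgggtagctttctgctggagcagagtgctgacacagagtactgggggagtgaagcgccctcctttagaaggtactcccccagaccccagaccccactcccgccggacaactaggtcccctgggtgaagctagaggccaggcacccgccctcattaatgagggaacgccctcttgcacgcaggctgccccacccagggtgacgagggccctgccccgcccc
The C3 stretch held 1 match, to the C/EBP motif, beginning 45 bases before the start. That motif occurred in 9.56% of all 32851 stretches in the table. The other motifs occurred in 2.98% (interferon-stimulated response element core), 7.02% (gamma-activated site), 10.6% (PU.1), 6.75% (AP-1) and 4.65% (NF-kB) of stretches. The C1qc stretch held 1 match, to the PU.1 motif on the strand opposite to the gene, 194 bases before the start. No match was found in the windows of C1qb and Cd55 for these letters. A match describes letters and not a used site.

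The levels of the members were then compared per length, as CPM per kilobase of annotated exon. Serping1 was highest, with 79.0 ± 8.17 CPM per kilobase (SD over the 4 libraries), and every library lay above every value of the other members. C1qa followed with 39.5 ± 9.40, C1qb with 27.8 ± 6.62 and C3 with 23.3 ± 12.3 CPM per kilobase, and the ranges of these neighbours overlapped. C1qc had 12.4 ± 2.39 CPM per kilobase, within the range of C3, and C4b had 5.32 ± 1.45. Cd55 was lower still, with 1.62 ± 0.413 CPM per kilobase. Cfi (0.312 ± 0.266) and Cfb (0.301 ± 0.347) were lowest and overlapped, and the level of Cfb divides by exon bases that were mostly shared with Gm20547. The order was the same when the length of the main coding transcript was used.

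Across the comparison of genotypes, 0 of the 8 tested members were called, that is, reached an adjusted p under 0.05 in the quasi-likelihood test of edgeR, against 2 of 14908 genes overall (0.0134%). At an unadjusted p under 0.05 there was 1 member, Cfb, which was lower in Zbp1-KO, against 1.97% of all tested genes in that direction, 1.91% in the other and 3.88% in either. The median log2 fold change (Zbp1-KO over WT) of the 8 members was 0.10, beside −0.01 over all tested genes, and 5 of them were above 0. The levels of the genotypes did not overlap for 5 of the 8 members, 3 higher and 2 lower in Zbp1-KO, where 32.3% of all tested genes did not overlap, 16.0% above and 16.3% below WT. Cfb passed the read filter only through its WT libraries, so that these counts are a description and not evidence about the group. The plot of levels by library shows each member.

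**Figure D2:**
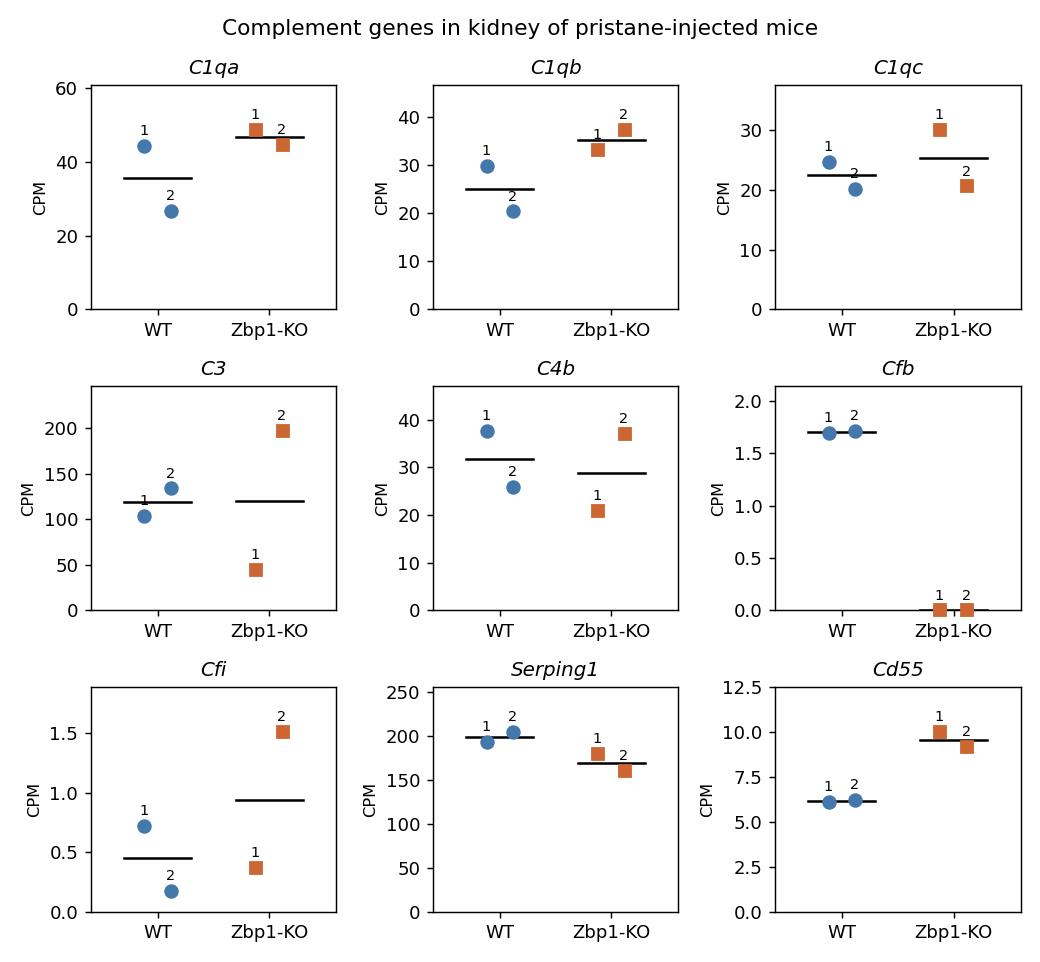
Level of each of the 9 complement genes in the 4 libraries (CPM, linear axes starting at 0). Circles are WT, squares are Zbp1-KO, numbers are the replicate, and lines are the mean of 2 libraries. Cfb was at 0 in both Zbp1-KO libraries, Cd55 was higher in both, and the Zbp1-KO values of C3 lay below and above both WT values.

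The C1q chains were examined first. Both Zbp1-KO libraries lay above both WT libraries for C1qa and C1qb, by margins smaller than the gap between the WT libraries, and not for C1qc. C1qa, the A chain, measured 44.4 and 26.8 CPM in WT, against 48.7 and 44.6 in Zbp1-KO. This corresponded to 35.6 ± 12.5 CPM against 46.7 ± 2.93 CPM (SD, n = 2 each). On the log2 scale the difference was 0.39 ± 0.25 (SE; 95% interval −0.15 to 0.94), and the adjusted p from edgeR was 0.999. The library WT 2 stood lowest. Without WT 2 the log2 fold change was 0.07, and without WT 1 it was 0.79.

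C1qb, the B chain, measured 29.9 and 20.4 CPM in WT, against 33.2 and 37.4 in Zbp1-KO, or 25.2 ± 6.70 against 35.3 ± 2.97 CPM (SD, n = 2 each). The log2 difference of 0.48 ± 0.24 (SE; 95% interval −0.05 to 1.02) had an unadjusted p of 0.0706, and edgeR adjusted it to 0.999. It was 0.23 without WT 2 and 0.78 without WT 1. C1qc, the C chain, measured 24.7 and 20.2 CPM in WT, against 30.1 and 20.6 in Zbp1-KO, and the genotypes overlapped. Its log2 fold change was 0.18 ± 0.26 (SE), adjusted p = 0.999 in the edgeR test, with a 95% interval of −0.39 to 0.75. Without Zbp1-KO 1 it was −0.13.

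Summed over the chains, C1q reached 99 and 67.4 CPM in WT, against 112 and 103 in Zbp1-KO. Macrophage markers, a list of 10 genes that were all detected, summed to 331 and 232 CPM in WT, against 308 and 318 in Zbp1-KO. WT 2 thus had the lowest summed level of both C1q and these markers. Not every marker followed the sum. Csf1r was lowest in WT 2 (102 CPM, against 148 CPM in WT 1). Mertk was lowest in WT 1 instead (24.5 CPM, against 25.3 CPM in WT 2). Lyz2, the lysozyme gene of myeloid cells, measured 109 and 64.1 CPM in WT, against 97.9 and 103 in Zbp1-KO. Of the 10 markers, 4 had both Zbp1-KO libraries above both WT libraries and 0 were below, beside 16.0% and 16.3% of all tested genes. The part of macrophage content in the C1q values was not tested. In whole kidney, fewer cells of a type and less RNA per cell cannot be told apart.

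The balance of the chains was compared within libraries, since the proteins assemble in fixed proportion. C1qa took 39.7% to 44.8% of the summed C1q counts, and the 95% Wilson intervals of all libraries overlapped. C1qb took 30.2%, 30.3% and 29.6% in WT 1, WT 2 and Zbp1-KO 1, and 36.4% in Zbp1-KO 2 (33.5% to 39.6%). C1qc took 24.9% and 29.9% in WT and 26.9% in Zbp1-KO 1. It took 20.1% in Zbp1-KO 2, where the interval of 17.6% to 22.7% lay below those of WT 2 (26.9% to 33.2%) and Zbp1-KO 1 (24.7% to 29.1%) and touched that of WT 1 (22.6% to 27.4%). The shares of C1qb and C1qc therefore differed between replicates of Zbp1-KO by more than these intervals, and the genotypes did not separate. These intervals cover counting error only, with each read taken as a separate molecule. Duplicate reads were not marked by molecular identifiers, so that the intervals may be too narrow.

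**Figure D3:**
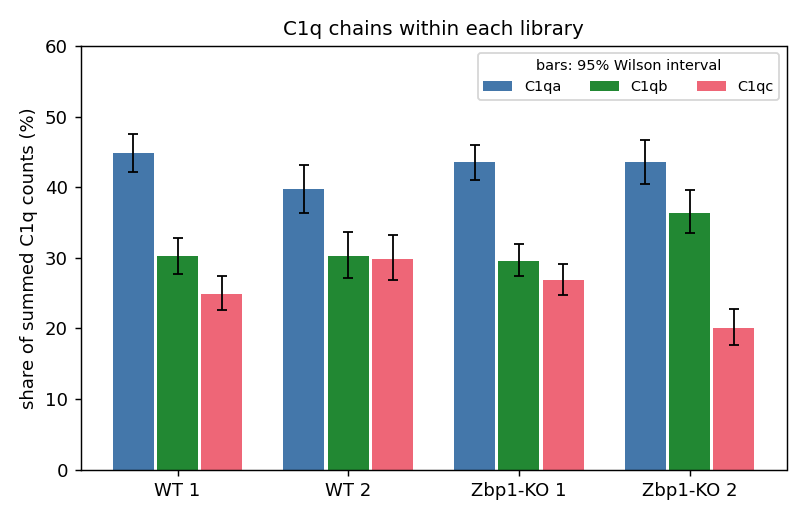
Share of each chain gene in the summed C1q counts of a library (vertical axis, percent, starting at 0), with 95% Wilson intervals as bars. C1qa took the largest share in each of the 4 libraries, and Zbp1-KO 2 had the highest share of C1qb (36.4%) and the lowest of C1qc (20.1%).

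C3, the central component on which all pathways converge, had the widest range of the well-measured members. It measured 104 and 134 CPM in WT, against 44.2 and 197 in Zbp1-KO. The lowest and the highest of the 4 values were thus both Zbp1-KO libraries, with the WT libraries between them. The means were nearly equal, with 119 ± 21.4 CPM for WT beside 120 ± 108 CPM for Zbp1-KO (SD, n = 2 each). The log2 fold change was 0.01 ± 0.47 (SE), adjusted p = 0.999 in the edgeR test, and its 95% interval of −1 to 1.03 leaves room for a difference in either direction. It was 0.72 without Zbp1-KO 1 and −1.44 without Zbp1-KO 2, so that the sign rested on the library.

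C4b, the fourth component of the classical pathway, measured 37.6 and 25.9 CPM in WT, against 20.9 and 36.9 in Zbp1-KO. As for C3, Zbp1-KO 1 was the lowest library, and the genotypes overlapped. The log2 fold change was −0.14 ± 0.29 (SE), adjusted p = 0.999 in the edgeR test, with a 95% interval of −0.78 to 0.50. It was 0.14 without WT 1 and 0.21 without Zbp1-KO 1. With C4a counts added to those of C4b it was −0.11. C4a alone had 7 and 9 counts in WT and 2 and 21 counts in Zbp1-KO and was below the filter. Fibroblast markers, of which all 7 were detected, summed to 736 and 577 CPM in WT, against 398 and 606 in Zbp1-KO, and were also lowest in Zbp1-KO 1. Of these 7 genes, 0 separated the genotypes, beside 32.3% of all tested genes. Mesothelial markers summed to 57 and 68 CPM in WT, against 45 and 64.5 in Zbp1-KO, with all 5 detected. Zbp1-KO 1 also had the smallest mitochondrial share (49.5%). Its summed level of 12 interferon response genes was the highest (701 CPM, against 357, 471 and 448 CPM in WT 1, WT 2 and Zbp1-KO 2). Of these 12 genes, 6 had both Zbp1-KO libraries above both WT libraries and 1 was below, beside 16.0% and 16.3% of all tested genes. Their median log2 fold change was 0.50. The part of these differences in the low C3 and C4b values was not tested.

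Cfb, which encodes factor B of the alternative pathway, was detected in WT alone. WT libraries held 21 and 20 counts of it and both Zbp1-KO libraries held 0 counts, or 1.69 and 1.71 CPM against 0. At the mean WT level, 23.1 and 15.8 counts would have been read at the depth of the Zbp1-KO libraries. A count of 0 allows up to 3 counts, which is 0.221 CPM in Zbp1-KO 1 and 0.323 CPM in Zbp1-KO 2. With this limit applied to each Zbp1-KO library, the mean WT level was 6.24-fold above the mean limit. The counting error of the WT libraries is not included, so that 6.24 is not a lower bound of the difference. The edgeR quasi-likelihood test gave an unadjusted p of 0.00557 and an adjusted p of 0.999, so that Cfb was not called. Cfb passed the read filter only through its WT libraries, so that its p-values are a description and not evidence of a difference. The likelihood ratio test of edgeR called it (adjusted p = 0.0368), the exact test of edgeR did not (adjusted p = 0.171), and the adjusted p ran from 0.0368 to 1.00 over all settings. With at least 1 count in any library as the filter, the adjusted p was 0.713 in edgeR, where 0.186% of genes were called and 0.122% were called as lower. The overlap of Cfb with Gm20547 applies to all 4 libraries. Its neighbour C2, of which Gm20547 covers 42.8% of the exon bases, measured 7.80 and 10.6 CPM in WT, against 17.0 and 9.26 in Zbp1-KO, with a log2 fold change of 0.52 ± 0.37 (SE, adjusted p = 0.999 in the edgeR test). C2 was detected in all 4 libraries. The part of the overlap in the Cfb counts was not tested.

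Of the list of 8 acute phase and NF-kB genes, 6 were detected, and Saa1 and Saa2 were at 0. Their summed level was 247 and 141 CPM in WT, against 99 and 140 in Zbp1-KO. Saa3, an acute phase gene induced in inflamed tissue, was the most abundant of them, with 164 and 77.1 CPM in WT beside 23.7 and 72.4 CPM in Zbp1-KO. It was the 1 gene of the 6 whose genotypes did not overlap, beside 32.3% of all tested genes. The log2 fold change of the others lay on either side of 0. Whether the level of Cfb followed these genes was not tested.

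The regulators were examined last. Cd55, which protects cell surfaces from convertases, was higher in both Zbp1-KO libraries, and the replicates were close. It measured 6.11 and 6.24 CPM in WT, against 10 and 9.16 in Zbp1-KO, from 76 and 73 counts against 136 and 85 counts. The log2 difference was 0.64 ± 0.38 (SE; 95% interval −0.20 to 1.47), at an edgeR adjusted p of 0.999. With any library left out it stayed between 0.56 and 0.69.

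Serping1, the inhibitor of C1r and C1s, was the most abundant member and lay slightly lower in both Zbp1-KO libraries. It measured 193 and 204 CPM in WT, against 179 and 160 in Zbp1-KO, or 198 ± 7.74 against 169 ± 13.5 CPM (SD, n = 2 each). The log2 fold change was −0.23 ± 0.18 (SE), adjusted p = 0.999 in the edgeR test, with a 95% interval of −0.61 to 0.16. It stayed between −0.32 and −0.16 with any library left out. Cfi, the protease factor I, had 9 and 2 counts in WT and 5 and 14 counts in Zbp1-KO and did not pass the filter. Its values of 0.724 and 0.171 CPM in WT, against 0.369 and 1.51 in Zbp1-KO overlapped. With genes of at least 1 count tested in edgeR, its log2 fold change was 1.02 ± 2.04 (SE, adjusted p = 0.968), so that these counts could not show a difference. The plot of fold changes with each library left out shows that C1qc, C3 and C4b changed sign, whereas C1qa, C1qb, Cd55 and Serping1 did not.

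**Figure D4:**
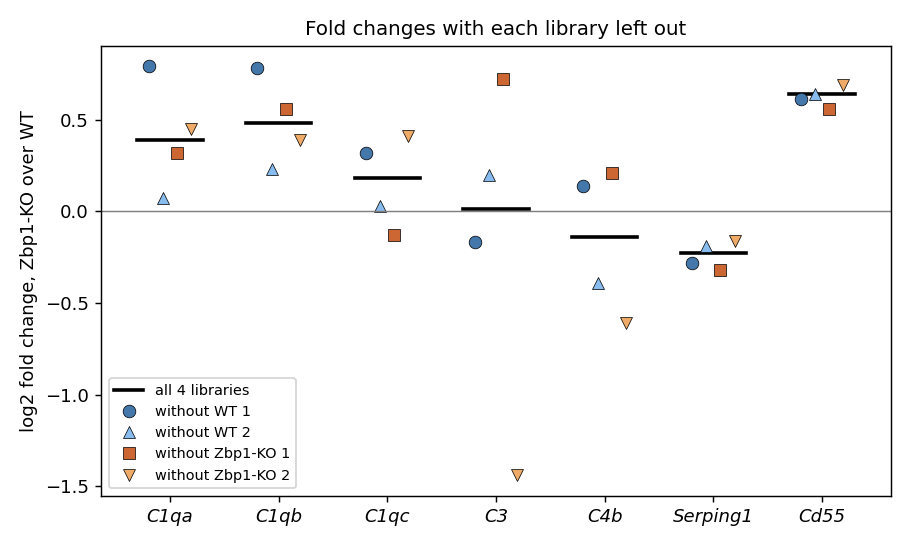
Log2 fold change (vertical axis, Zbp1-KO over WT) of 7 members with all 4 libraries (lines) and with each library left out (symbols). Cd55 stayed between 0.56 and 0.69 and Serping1 between −0.32 and −0.16, while C3 ran from −1.44 to 0.72. Cfb, with 0 counts in Zbp1-KO, and Cfi, below the filter, are not drawn.

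The rest of the pathway was examined through a list of 41 other complement genes, of which 22 were tested. In the edgeR test 0 were called and 0 had an unadjusted p under 0.05 in either direction, and the median log2 fold change was 0.02. In the limma-voom, likelihood ratio and exact tests, 0 were called as well. The genotypes did not overlap for 4 of the 22, 2 above and 2 below WT, beside 32.3% of all tested genes, so that the list did not exceed that share. They are named here after their values were seen. C3ar1, the receptor of the C3a fragment, measured 2.33 and 2.65 CPM in WT, against 5.97 and 3.99 in Zbp1-KO, with a log2 fold change of 1.00 ± 0.61 (SE). C8g, which encodes a chain of C8, measured 4.58 and 3.25 CPM in WT, against 7 and 6.25 in Zbp1-KO. C1ra, a protease of the C1 complex, measured 43.0 and 46.7 CPM in WT, against 40.1 and 32.6 in Zbp1-KO. Cd59a, which blocks the membrane attack complex, measured 126 and 134 CPM in WT, against 124 and 106 in Zbp1-KO.

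Other abundant genes of the pathway were compared by role. The partner protease C1s1 had a log2 fold change of 0.07 ± 0.23 (SE), and properdin (Cfp), which stabilises the alternative convertase, one of −0.02 ± 0.28 (SE). The terminal component C8a had −0.40 ± 0.26 (SE), and Itgb2, the shared chain of the complement receptors CR3 and CR4, 0.21 ± 0.41 (SE). For each of these the edgeR adjusted p was 0.999. Complement factor D (Cfd), which cleaves factor B and is made by adipocytes, was among the 2 called genes. It measured 14.4 and 19.8 CPM in WT, against 83.7 and 73.3 in Zbp1-KO (adjusted p = 0.00889 in the edgeR test). Adipocyte markers, of which 5 of 6 were detected and Lep was at 0, summed to 65.9 and 90.1 CPM in WT, against 146 and 117 in Zbp1-KO. Fabp4 made up most of this sum, with 62.8 and 80.5 CPM in WT, against 115 and 88.8 in Zbp1-KO. All 5 tested markers had both Zbp1-KO libraries above both WT libraries, beside 16.0% of all tested genes. Their median log2 fold change was 2.13, beside 0.51 for Fabp4 and 2.20 for Cfd. The part of adipocyte content in the Cfd values was not tested.

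**Figure D5:**
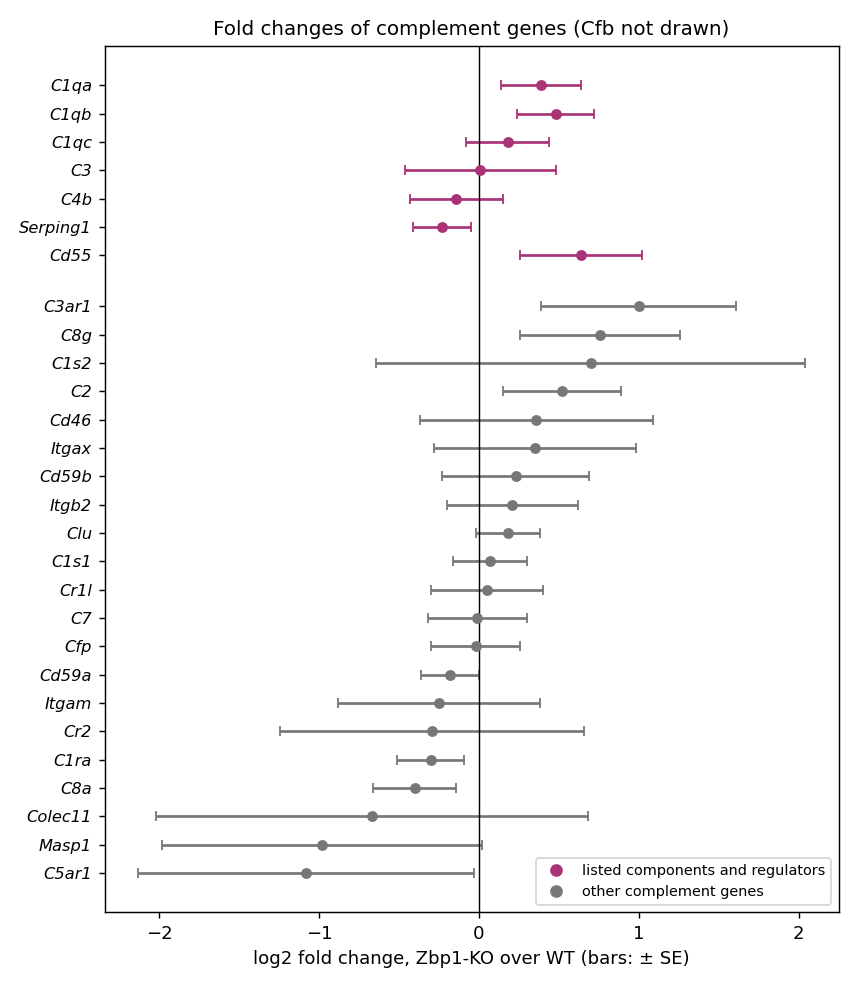
Log2 fold change (horizontal axis, Zbp1-KO over WT) with SE for 7 of the tested members and for other complement genes that were tested. Of the members drawn, Cd55 was farthest from 0 (0.64), and 0 of the genes drawn were called. Cfb is not drawn because its fitted value depends on the prior count.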

How the data were processed

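Polyadenylated RNA from whole kidneys was sequenced as read pairs. The authors used Trimmomatic for trimming, HISAT2 for alignment and featureCounts to count uniquely mapped pairs; the submitters' processing notes name mm10. The deposited values are raw counts per Ensembl gene. Annotation release, program versions and strand setting are not given in the sources used here. Of 54532 identifiers, 54495 matched GENCODE M21.

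Counts were tested in edgeR 4.0.16 (R 4.3.3) with filterByExpr (minimum count 10, minimum total 15), TMM scaling and the two-sided quasi-likelihood F test, with genotype as the only term and Benjamini-Hochberg adjustment over 14908 genes. SE was taken from the log2 fold change and its F statistic. A count of 0 was given a limit of 3 counts per library. Alternatives were 2 other scalings, 2 other filters, the replicate block, other edgeR tests, DESeq2 1.42.0, limma-voom (limma 3.58.1), removal of mitochondrial genes, summed copies, another prior count, an adjusted p of 0.1 and left-out libraries. DESeq2 was run on all genes of at least 1 count. Tests were checked on simulated data. C4b and C4a were aligned in Biopython 1.88. The members and lists were chosen with earlier results of these data known. Named genes were the members, Zbp1, C4a, Cd55b, Cfd, other complement genes with an unadjusted p under 0.05 and the most abundant tested gene per role, and up to 3 markers per list; other genes were chosen after their values were seen. A few listed genes are not reported here by name, and the counts and medians of the list include them. Motifs were chosen after the data were seen.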

Additional observations from a re-analysis of the deposited data

How the results depend on the processing

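With 2 libraries per genotype, fold changes alone are given with a library left out, and the lowest counts among the members were those of Cfb and Cfi. The number of called genes was 2, and became 41 with all genes of at least 1 count, 14 with the edgeR exact test, 26 with the likelihood ratio test, 7 with DESeq2, 7 with limma-voom and 4 without mitochondrial genes. More genes of low count entered in the first of these and in DESeq2, which was run with the same filter. The cause of the change was not tested for any of them. Of the members, 1 (Cfb) was called with the likelihood ratio test and 0 in the other settings, and 0 had an unadjusted p under 0.05 with a mean of at least 1 CPM, where Cfb was not tested. Of the other complement genes, 1 had an unadjusted p under 0.05 in DESeq2, and that gene was below the filter of the main test. Blocking on the replicate number gave 11 called genes, 0 of them members, and C3 went from 0.01 to −0.33. The block changed no call of a member. The deviations from the group means of libraries that share a number correlated at 0.00399 over genes, which gave no sign of pairing. C3 was −0.42 in limma-voom. With each library left out, the median of the members ran from 0.07 to 0.32 and that of the other complement genes from −0.20 to 0.28. C1qc ran from −0.13 to 0.41, C3 from −1.44 to 0.72 (−0.17 without WT 1) and C4b from −0.61 to 0.21, with 0.14 without WT 1. With all libraries, the median of the members was −0.01 with the block and −0.02 in limma-voom. Scaling moved the median of all genes by less than 0.1.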

Other observations

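Of the 41 other complement genes, 19 were below the filter, and 7 of these had 0 counts in every library. They included Fcnb, Colec10, Masp2, C8b, C9 and Cd55b. The terminal components C8b and C9 were therefore not detected, while C7 measured 28.5 and 17.4 CPM in WT, against 17.7 and 28.1 in Zbp1-KO and C8a 50.7 and 30.1 CPM against 30.4 and 31.0 CPM. Hc, which encodes C5, was read 5 times in WT 1 and was at 0 elsewhere.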
